A study of Mus musculus with 24 samples.

Results

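Later-intron intervals are stretches of accessible chromatin that the authors' peak annotation places inside a gene, past its first intron, and at a distance from the nearest start it lists. They were chosen from that annotation by position alone: an interval on chromosomes 1 to 19, annotated in intron 2 or a later intron, more than 1000 bp from the nearest annotated transcription start site (TSS) and under 3000 bp wide. The rule found 37330 intervals of 145143 (25.72%). No measured count entered the choice. First-intron intervals with the same limits on distance and width numbered 20888 (14.39%), and intergenic intervals close to genes, 1 to 50 kb from a TSS, numbered 38206 (26.32%). Both serve below as the sets most like the later introns.

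The study followed chromatin accessibility by ATAC-seq in mouse embryonic stem cells after doxycycline was given to induce Firre, with control lines lacking the transgene to show the effect of doxycycline itself. All 4 lines received doxycycline. Without the transgene were the wild type line (WT control) and the Firre knockout (KO control). With it were the WT Firre line, wild type at the Firre locus, and the KO Firre line, a Firre knockout. Each was sampled once at 0, 30, 60, 90, 120 and 150 min. The 60 min library of the WT Firre line was not analysed here, which left 23 libraries. The cells were kept on gelatin with LIF, the MEK inhibitor PD0325901 and the GSK3 inhibitor CHIR99021. The times were used as the replicates of a line. With 1 line per genotype, genotype and clone cannot be told apart, and the p-values measure only the spread between libraries of 1 line each.

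ATAC-seq maps open chromatin by letting a transposase insert sequencing adapters where DNA is not wrapped tightly or shielded. Introns hold many of the enhancers of mammalian genes, in part for the host gene and in part for neighbours, and the first intron is the one closest to the promoter and richest in such elements. Firre is a long non-coding RNA transcribed from the X chromosome, kept in the nucleus and known for contacts with loci on other chromosomes.

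A small subset of later-intron intervals covers a transcript start listed by RefSeq, of the host gene or of another gene. The RefSeq table of start windows (300 bases around each annotated start, most of them upstream, build GRCm38.p6, the same assembly as the mm10 of the files) was matched by position, and 154 intervals held at least 1 of its 32817 windows in full, 175 windows in all. In 35 of them the window belonged to the host gene itself. From those 35, 5 intervals called between the control lines were taken for description, and all 5 were higher in the KO control. A call is an adjusted p of 0.05 or less in edgeR, reached by 7.97% of all tested intervals (5.5% higher, 2.47% lower). Of promoter intervals 16.4% were higher and 1.38% lower. Of the 154 intervals with any window, 13 were higher and 4 lower (11% called). The 5 need not be all the called intervals among the 35. The windows of these 5 and that of a lincRNA on chromosome 13 were read because they tie a called interval to a named start. Shown here are the windows of Gm26715 (chr13:66349156-66349455, plus strand), Dgka (chr10:128737563-128737862, minus strand), Spop (chr11:95413833-95414132, plus strand) and Zfp217 (chr2:170131171-170131470, minus strand), each written 5′ to 3′ along the strand of transcription. Capitals mark matches, on either strand, to 6 short motifs: GGGCGGG (the GC box), TGACGTCA (the cyclic AMP response element), the palindromic NRF1 motif, CCGGAAGT (an ETS motif), TATAAA and CCAAT.
Gm26715: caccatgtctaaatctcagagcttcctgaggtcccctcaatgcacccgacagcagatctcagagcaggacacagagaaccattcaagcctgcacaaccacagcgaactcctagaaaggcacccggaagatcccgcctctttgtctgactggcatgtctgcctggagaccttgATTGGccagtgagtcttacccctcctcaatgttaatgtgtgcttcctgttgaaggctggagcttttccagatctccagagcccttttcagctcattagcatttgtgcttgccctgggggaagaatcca
Dgka: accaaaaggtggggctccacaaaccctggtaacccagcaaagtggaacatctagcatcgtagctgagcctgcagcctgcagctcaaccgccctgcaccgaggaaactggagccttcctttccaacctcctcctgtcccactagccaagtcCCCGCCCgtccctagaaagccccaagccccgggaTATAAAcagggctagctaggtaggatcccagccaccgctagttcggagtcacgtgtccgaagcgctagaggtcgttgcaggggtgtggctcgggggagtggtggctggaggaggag
Spop: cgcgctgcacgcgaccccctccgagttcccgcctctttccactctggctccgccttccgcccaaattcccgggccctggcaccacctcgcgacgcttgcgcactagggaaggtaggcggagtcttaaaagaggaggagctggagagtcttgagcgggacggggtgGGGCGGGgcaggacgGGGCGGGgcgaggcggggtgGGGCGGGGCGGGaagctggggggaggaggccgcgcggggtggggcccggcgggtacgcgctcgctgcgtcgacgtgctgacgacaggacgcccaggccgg
Zfp217: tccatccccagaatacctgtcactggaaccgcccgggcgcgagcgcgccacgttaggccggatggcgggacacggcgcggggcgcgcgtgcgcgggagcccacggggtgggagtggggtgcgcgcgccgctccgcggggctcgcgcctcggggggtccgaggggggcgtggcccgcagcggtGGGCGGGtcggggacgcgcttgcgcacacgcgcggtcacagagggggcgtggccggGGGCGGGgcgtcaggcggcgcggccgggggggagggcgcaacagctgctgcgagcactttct

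In the windows printed, Spop had 4 GC boxes counting overlapping matches, Zfp217 had 2, Dgka had 1 and a TATAAA, and Gm26715 had 1 CCAAT on the opposite strand. Across the 175 windows inside later-intron intervals, 16.6% held GGGCGGG, against 25.6% of all windows in the table. The shares were 32.6% against 37.4% for CCAAT, 9.14% against 13.6% for TATAAA, 2.86% against 3.89% for CCGGAAGT, 0.571% against 1.79% for TGACGTCA and 0% against 0.966% for the NRF1 motif. The median GC content was 53% inside the intervals and 52.7% over the table. A match describes the letters in these windows only.

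The 5 called intervals taken above, each with a start window of its own host gene, were chosen for description after their values were seen. They were not refitted under other settings. Spop encodes the substrate adaptor of a cullin ubiquitin ligase. Its interval in intron 2 (chr11:95413707-95415238) had 24.9 ± 2.43 CPM (counts per 1000000 of the library, scaled by TMM, the trimmed mean of M values; SD, n = 6) in the WT control and 31.98 ± 3.28 (n = 6) in the KO control, a log2 difference of 0.355 ± 0.090 (SE; adjusted p = 0.00541, edgeR). Zfp217, a zinc finger repressor gene, had 29.6 ± 3.54 CPM in the WT control and 37.9 ± 4.18 in the KO control (log2 0.351 ± 0.088; adjusted p = 0.00491, edgeR). The interval of Dgka, a diacylglycerol kinase, had 14.1 ± 1.25 and 17.7 ± 2.79 CPM (log2 0.315 ± 0.097; adjusted p = 0.0276, edgeR). For the ciliary membrane protein gene Tmem231 the log2 difference was 0.282 and for Gm33148 it was 0.387. The 154 intervals that held any window had a median level of 5.34 CPM per kb, above the 4.23 of the other later-intron intervals.

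The later-intron intervals lay in 10264 host genes, 9667 of them named by the file, and the nearest TSS was that of the host for only 15792 intervals (42.3%). They were short, with a median width of 639 bp and 5% to 95% limits of 212 to 1812 bp. Their median distance to a TSS was 17508 bp, with limits of 2670 to 100033 bp. Intron 2 held 10967 (29.38%), intron 3 held 16.56%, introns 4 and 5 held 17.15%, introns 6 to 10 held 19.14% and introns from 11 on held 17.77%, up to intron 191. The last intron of the transcript held 7785 (20.85%). Intron numbers depend on the transcript chosen: in the detailed column of the same annotation 14461 intervals carried another intron number, and 2003 of them were placed in intron 1 there. Host genes were mostly protein coding (34492 intervals), followed by lincRNA (1653) and antisense genes (513).

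Members were spread thinly over genes. In 3912 host genes there was 1 interval, and 769 genes with 10 or more held 12413. Camta1, a calmodulin-binding transcription activator gene, had the most with 83, then the FGF receptor gene Fgfr2 with 69, the zinc transporter gene Slc39a11 with 60, the cadherin genes Cdh13 with 56 and Cdh4 with 50, and the homeodomain factor gene Zfhx3 with 49. Within Camta1 the level ran from 2.02 to 9.98 CPM per kb with a median of 4.1. Within Slc39a11 it ran from 2.01 to 18.9 with a median of 4.39. One hairpin of the RefSeq miRNA table lay inside a member, Mir12181 in intron 5 of Coro6.

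Accessibility was low and even across the set. The median level was 4.23 CPM per kb with 5% to 95% limits of 2.39 to 10.1, against 4.49 (2.48 to 12.8) for first introns, 4.52 (2.49 to 11.9) for gene-near intergenic intervals and 8.18 (2.92 to 29.8) for promoter intervals. The medians of the 3 distal sets lay close together, and the upper limit of the later introns was the lowest of the 4 sets. By intron number the median level went from 4.32 CPM per kb in intron 2 to 4.13 in introns from 11 on. Intervals just inside the distance limit (the 20 nearest above it, 1001 to 1032 bp) had a median of 4.48 CPM per kb and the 20 just outside (879 to 991 bp) 4.39. On the width limit the 20 just inside (2959 bp and wider) had 5.29 and the 20 just outside (3011 to 3100 bp) 5.34.

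Libraries held 5725518 to 14977148 counts (median 7664147), at which 3 counts, the floor for a count of 0, are 0.391 CPM. Reads carry no molecular identifiers, so floors cover counting error only. Firre's own 20 intervals summed to 82 to 99.6 CPM in the WT control, 116 to 140 in the WT Firre line, 6.59 to 14.3 in the KO control and 18.2 to 28.6 in the KO Firre line, so the lines followed their labels. Promoter intervals of all 8 stem cell markers were present and summed to 262 to 356 CPM over the lines. Of 8 fibroblast and 8 germ layer markers, 2 each had a promoter interval, summing to 21.1 to 26.4 and 38.7 to 49.8 CPM. Some libraries stood apart in composition: the promoter intervals took 43.14% and 43.1% of counts in the KO control at 30 and 90 min and 44.28% in the WT Firre line at 150 min, against 38.07% to 39.7% in the WT control.

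The share of all counts that fell in later-intron intervals was lower in the KO control than in the WT control. It was 16.51%, 16.34%, 15.94%, 16.30%, 15.91% and 16.13% in the WT control from 0 to 150 min, and 15.49%, 14.62%, 15.47%, 14.56%, 14.80% and 15.42% in the KO control. Every KO control library lay below every WT control library. The means were 16.19% ± 0.237 and 15.06% ± 0.448 (SD, n = 6 each), a difference of -1.13 percentage points (exact 2-sided permutation p = 0.00216, the smallest p this design allows; adjusted p = 0.0195 over 9 tests). Without the KO control libraries of 30 and 90 min the difference was -0.891 points and the lines still did not overlap (exact permutation adjusted p = 0.0857). Paired by time, the KO control was lower at all 6 times (exact sign-flip test, adjusted p = 0.281). In both of these tests the p before adjustment was the smallest that the number of libraries allows, so neither could have passed on its own over 9 tests, and neither shows a loss of the difference.

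The KO Firre line had 15.68%, 15.21%, 15.03%, 14.97%, 15.16% and 15.15% in time order, a mean of 15.20% ± 0.251 (n = 6), and overlapped the KO control (difference 0.145 points; exact permutation adjusted p = 0.635). The WT Firre line had 15.81%, 16.16%, 15.78%, 15.64% and 14.34% at 0, 30, 90, 120 and 150 min. Its mean was 15.55% ± 0.700 (n = 5), -0.639 points from the WT control (exact permutation p = 0.0260, adjusted p = 0.117). The library of 150 min was the lowest of all 23 and is the one with the largest promoter share.

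**Figure D1:**
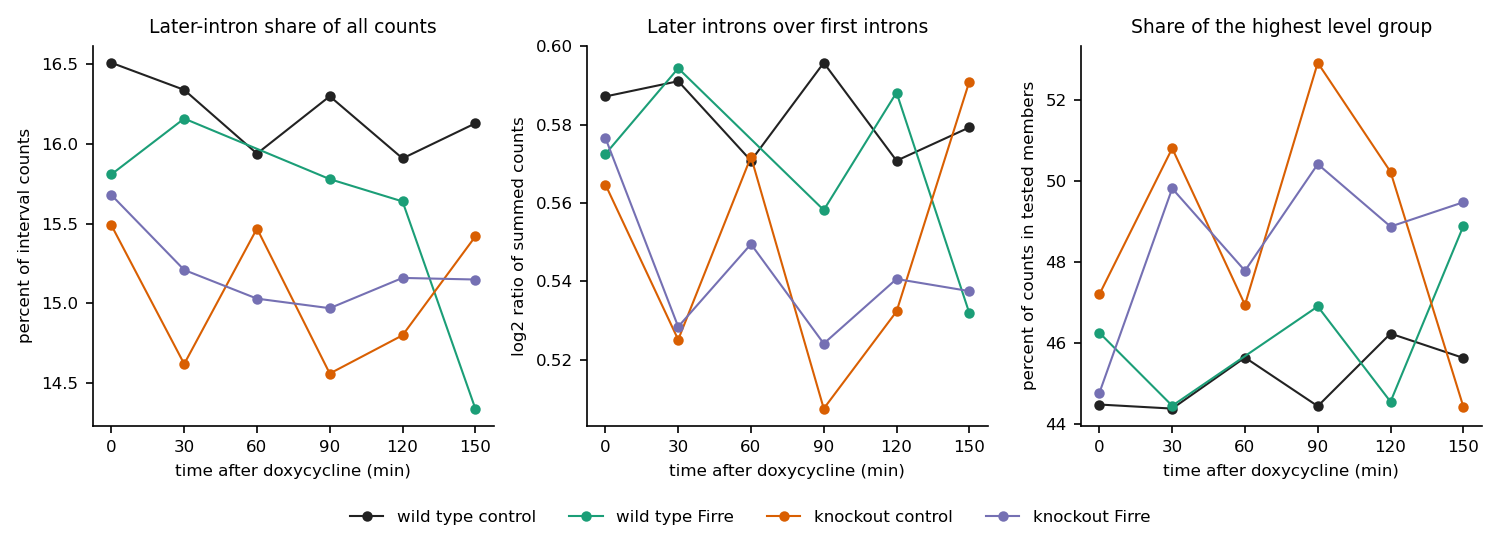
Share of interval counts in later-intron intervals (left), log2 ratio of their summed counts to those of first introns (middle) and share of the tested later-intron counts held by the highest of 4 level groups (right), for each library against minutes after doxycycline. Each point is 1 library, lines join the libraries of a cell line, and the WT Firre line has no point at 60 min; the KO control at 30 and 90 min lies lowest on the left among its line.

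The later introns moved little apart from the sets most like them. The log2 ratio of their summed counts to those of first introns averaged 0.582 ± 0.011 (SD, n = 6) in the WT control and 0.549 ± 0.032 in the KO control, a difference of -0.034 (exact permutation p = 0.0390, adjusted p = 0.117). Against the intergenic intervals the difference was -0.030 (exact permutation adjusted p = 0.156). For the KO Firre line against its control these differences were -0.006 and 0.003 (exact permutation adjusted p = 0.782 and 0.827), and for the WT Firre line -0.013 and -0.017 (exact permutation adjusted p = 0.435 and 0.218). None of the 6 ratios passed the test.

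Interval by interval, 32233 later-intron intervals (86.35%) passed the filter on low counts, and 1759 of them (5.46%) were called between the KO control and the WT control by edgeR's quasi-likelihood test at a Benjamini-Hochberg adjusted p of 0.05 or less over all 129515 tested intervals. The share called of all tested intervals was 7.97%. The calls were split into 836 higher (2.59%, against 5.5% of all) and 923 lower (2.86%, against 2.47% of all) in the KO control. The median log2 difference was -0.07, with 5% to 95% limits of -0.56 to 0.349, beside a median of -0.024 over all tested intervals. First introns had 6.28% called (median -0.053), intergenic intervals 5.97% (median -0.044) and promoters 17.8% (median 0.091). Later introns thus had the smallest share called and the lowest median of these sets. In bulk samples, fewer cells with an open site and less signal per cell cannot be told apart.

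The split of calls by direction turned on scaling. Scaled by total counts, 403 later-intron intervals were higher and 1888 lower with a median of -0.158, and with factors from the later-intron intervals alone 1313 were higher and 600 lower with a median of -0.011. Without the KO control libraries of 30 and 90 min, 358 were called, 226 higher and 132 lower. With the promoter share of each library as a covariate, 7 were called, all higher. That share separated the 2 control lines completely (38.07% to 39.7% against 41.03% to 43.14%). A difference between the lines and one of library composition therefore cannot be told apart in that fit. A call lost in it does not decide between them. Leaving out 1 library gave 828 calls without the KO control of 90 min, 1093 without that of 30 min, 1014 without that of 120 min, 3143 without that of 150 min and 980 without the WT control of 90 min.

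The direction of the calls went with the level of the interval. Tested intervals were split by mean level into 4 groups of equal size. In the lowest group (up to 3.57 CPM per kb) 26 were higher and 381 lower of 8059, with a median log2 difference of -0.195. The next groups gave 49 higher and 283 lower (median -0.119) and 99 higher and 182 lower (median -0.062). In the highest group (over 6.03 CPM per kb) 662 were higher and 77 lower of 8058, with a median of 0.062. The levels come from the same libraries as the test, and the trend itself was not tested. The highest group held 44.39% to 46.24% of the tested later-intron counts in the WT control libraries and 44.44% to 52.92% in those of the KO control, with the 150 min library lowest and the 90 min library highest. Without the KO control libraries of 30 and 90 min the highest group had 176 higher and 20 lower calls and the lowest group 10 and 41. Scaled by total counts the highest group had 339 higher and 234 lower with a median of -0.027. Loess offsets, a scaling that varies with the mean counts of an interval, made the pattern smaller. With them the lowest group had 48 higher and 151 lower (median -0.091). The highest group then had 430 higher and 138 lower (median 0.046). With the promoter share as a covariate the medians were 0.061 in the lowest and -0.016 in the highest group, under the same limit, and the part of the promoter share in the pattern was not tested.

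**Figure D2:**
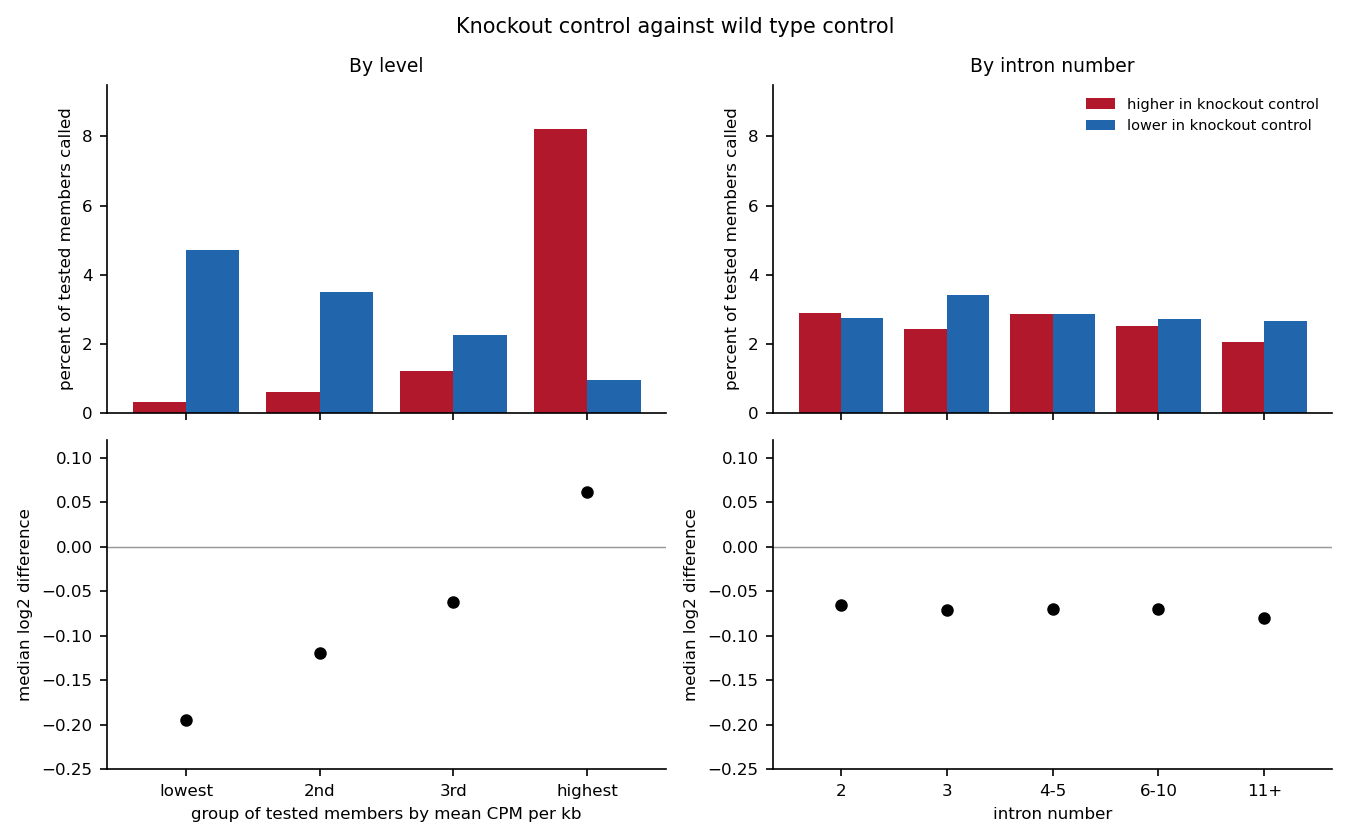
Percent of tested later-intron intervals called higher (red) or lower (blue) in the KO control than in the WT control (top) and their median log2 difference (bottom), by group of mean level (left) and by intron number (right). The median goes from -0.195 in the lowest group to 0.062 in the highest and stays between -0.065 and -0.08 over the intron numbers.

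Intron number made little difference. The share called was 5.65% in intron 2, 5.85% in intron 3, 5.71% in introns 4 and 5, 5.24% in introns 6 to 10 and 4.74% from intron 11 on, with medians from -0.065 to -0.08. Intervals in the last intron had 5.77% called and the others 5.37%. Across bins of distance to the nearest TSS the share ran from 4.98% to 5.83%. Width gave a wider range, from 1.89% of intervals under 300 bp to 10.5% in the widest bin, whose intervals also hold more counts.

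Chromosome 11 had a pattern of its own, which was described and not tested. There, 241 of 2589 tested later-intron intervals were higher and 6 lower in the KO control (9.54% called), with a median log2 difference of 0.097. On the other chromosomes 595 were higher and 917 lower of 29644 (5.1%), with a median of -0.084, and the medians of single chromosomes ran from -0.113 on chromosome 7 to -0.026 on chromosome 18. The shift ran along the whole of chromosome 11: in consecutive stretches of 20 Mb the medians were 0.075, 0.154, 0.108, 0.074, 0.104, 0.104 and 0.047. It was not confined to later introns, since over all tested intervals chromosome 11 had 1652 higher and 35 lower calls (17%) with a median of 0.14. The chromosome's median stayed above that of the others under each scaling, at 0.008 against -0.172 with total counts, 0.156 against -0.025 with factors from the later introns alone, and 0.139 against -0.059 without the KO control libraries of 30 and 90 min, where 97 were higher and 0 lower. With the promoter share as a covariate it was 0.226 against -0.003, with 4 calls. Without chromosome 11 the highest level group had 461 higher and 76 lower calls.

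In the KO Firre line, compared with the KO control that also stands in the comparison above, the sign on chromosome 11 was the opposite, with 7 higher and 31 lower calls and a median of -0.083, against 192 higher, 70 lower and 0.011 on the other chromosomes. In the WT Firre line 1 later-intron interval on chromosome 11 was called, in Prkca (protein kinase C alpha), with a median of -0.031 over the chromosome and -0.025 elsewhere.

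**Figure D3:**
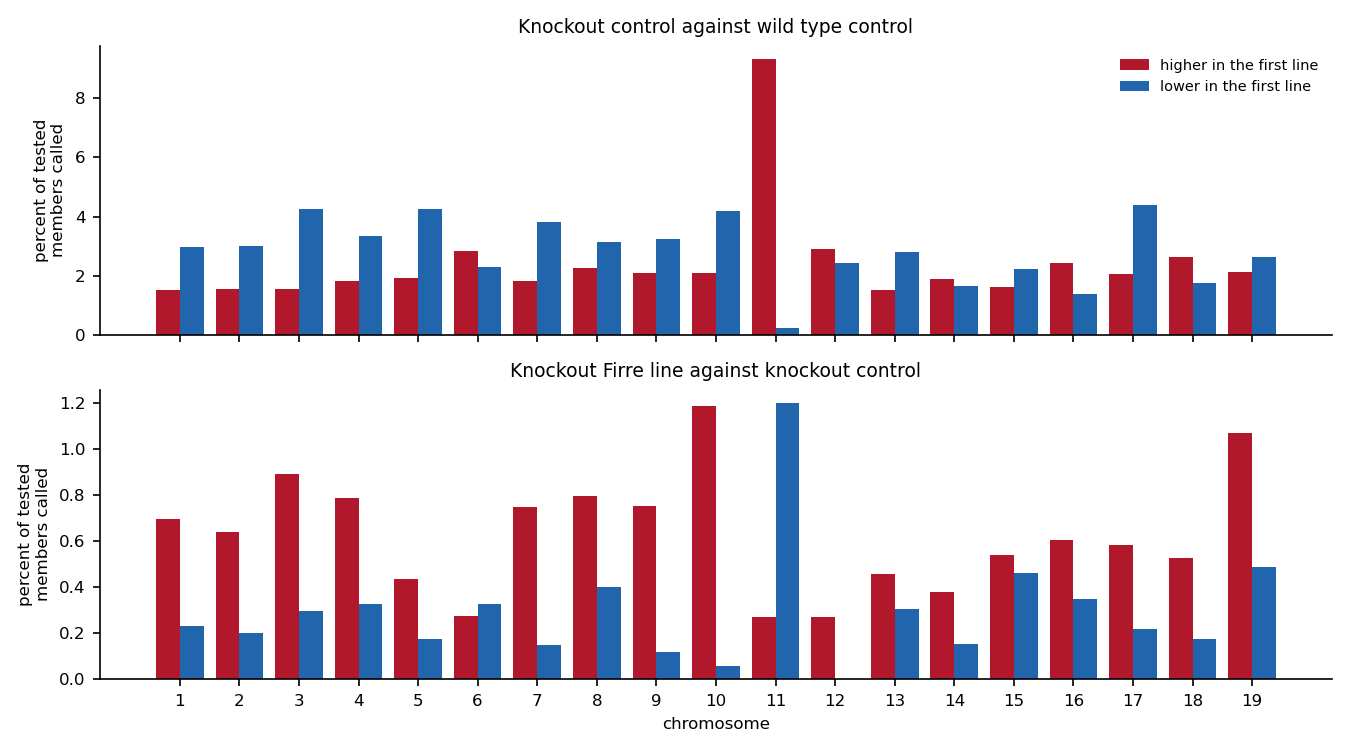
Percent of tested later-intron intervals on each chromosome called higher (red) or lower (blue), for the KO control against the WT control (top) and the KO Firre line against the KO control (bottom), on different vertical scales. Chromosome 11 has the tallest bar for higher calls in the top panel (9.31%) and the tallest for lower calls in the bottom panel.

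Among named members, the 10 with the largest increase in the KO control lay in Gm31816, Fnbp1, Dop1b, Lrriq3, Cfap58, Ctnna3, 2310008N11Rik, Csmd3, Nalcn and Spns3, with log2 differences from 0.985 to 1.22. All are low in counts, with medians of 1.42 to 3.57 CPM in the KO control. Of the 119 calls of named members and gene sums over all comparisons, 69 were lost with the promoter share as a covariate. The number lost was 54 without the KO control libraries of 30 and 90 min, 33 without the 0 min libraries and 15 with DESeq2. Those of Fnbp1, Dop1b, Ctnna3 and 2310008N11Rik between the controls were among the calls lost with the covariate. Fnbp1 encodes an F-BAR protein that bends membranes during endocytosis, and its interval (intron 9 of 13, chr2:31040019-31040277) had 0.566, 0.934 and 1.5 CPM (lowest, median, highest; n = 6) in the WT control and 1.74, 2.18 and 3.27 (n = 6) in the KO control. The groups did not overlap. The log2 difference was 1.22 ± 0.267 (adjusted p = 0.000921, edgeR). The lincRNA 2310008N11Rik (intron 2 of 3, chr8:26833322-26833908) had 1.30, 1.94 and 2.41 CPM in the WT control and 3.29, 3.57 and 5.01 in the KO control, again without overlap (log2 1.00 ± 0.196; adjusted p = 0.000190, edgeR). Both Firre lines lay between them in median, at 2.23 and 2.65 CPM.

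Dop1b, a gene of the Dopey family of membrane traffic proteins, had 0.519, 1.29 and 1.54 CPM in the WT control and 1.65, 2.62 and 3.13 in the KO control (intron 2 of 3, chr16:93802553-93802832), with no overlap (log2 1.18 ± 0.253; adjusted p = 0.000755, edgeR). The KO Firre line had 0.755, 1.39 and 1.99 CPM, which overlapped the KO control (log2 -0.878 ± 0.237; adjusted p = 0.0426, edgeR). Ctnna3, the gene of an alpha-catenin of cell junctions, had 0.731, 1.36 and 2.31 CPM in the WT control and 2.00, 2.95 and 3.62 in the KO control, which overlapped (log2 1.01 ± 0.242; adjusted p = 0.00296, edgeR). Without the KO control libraries of 30 and 90 min the calls of Gm31816, Lrriq3, Cfap58, Csmd3, Nalcn and Spns3 were lost, and those of Fnbp1, Dop1b, Ctnna3 and 2310008N11Rik between the controls held. Leaving out 1 library also ended the call of Gm31816 (the WT control of 30 min), of Nalcn (4 fits), of Cfap58, Csmd3 and Spns3 (6 each), of Lrriq3 (7) and of Dop1b in the KO Firre line (9).

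The 10 members with the largest decrease lay in Uvrag (2 intervals), Ttc7, Slc25a48, Dab1, Abca4, Pkp4, Cav1, P4ha3 and Slco2a1, with log2 differences from -1.29 to -1.71. Uvrag encodes a partner of the lipid kinase complex of autophagy and endosome traffic. Its interval in intron 8 of 10 (chr7:98931052-98931539) had 1.04, 1.45 and 2.97 CPM in the WT control and 0.183, 0.416 and 0.881 in the KO control. No libraries overlapped, and the WT control of 150 min was far above its line (log2 -1.71 ± 0.344; adjusted p = 0.000279, edgeR). A second interval of the same intron (chr7:98910165-98910381) had 0.701, 1.25 and 2.31 CPM against 0.183, 0.464 and 0.668, also without overlap (log2 -1.54 ± 0.368; adjusted p = 0.00296, edgeR). Dab1, the adaptor of Reelin signalling in neurons, had 1.22, 2.11 and 2.72 CPM in the WT control and 0.366, 0.766 and 1.13 in the KO control (intron 3 of 9, chr4:104344483-104345074), with no overlap (log2 -1.36 ± 0.295; adjusted p = 0.000891, edgeR).

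All 10 intervals, those of Uvrag included, were close to the floor of 0.391 CPM in the KO control, with at least 1 library below it, so their differences rest on few counts. Slc25a48 (a mitochondrial carrier) had 2 KO control libraries at 0 CPM, Abca4 (a retinal lipid transporter), Cav1 (the coat protein of caveolae) and Slco2a1 (a prostaglandin transporter) had 1 each, and Pkp4 (a plakophilin of cell junctions) and P4ha3 (a collagen prolyl hydroxylase subunit) went down to 0.220 and 0.125 CPM. Of these 10 calls, those of the first Uvrag interval and Dab1 held without the KO control libraries of 30 and 90 min. Both were lost with the promoter share as a covariate. The calls of Slc25a48 were lost without the KO control of 30 min or of 90 min, that of Abca4 without the 90 min library of either line, and that of Pkp4 without the WT control of 0 min. Leaving out 1 library ended the call of Cav1 in 5 fits and that of P4ha3 in 6.

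**Figure D4:**
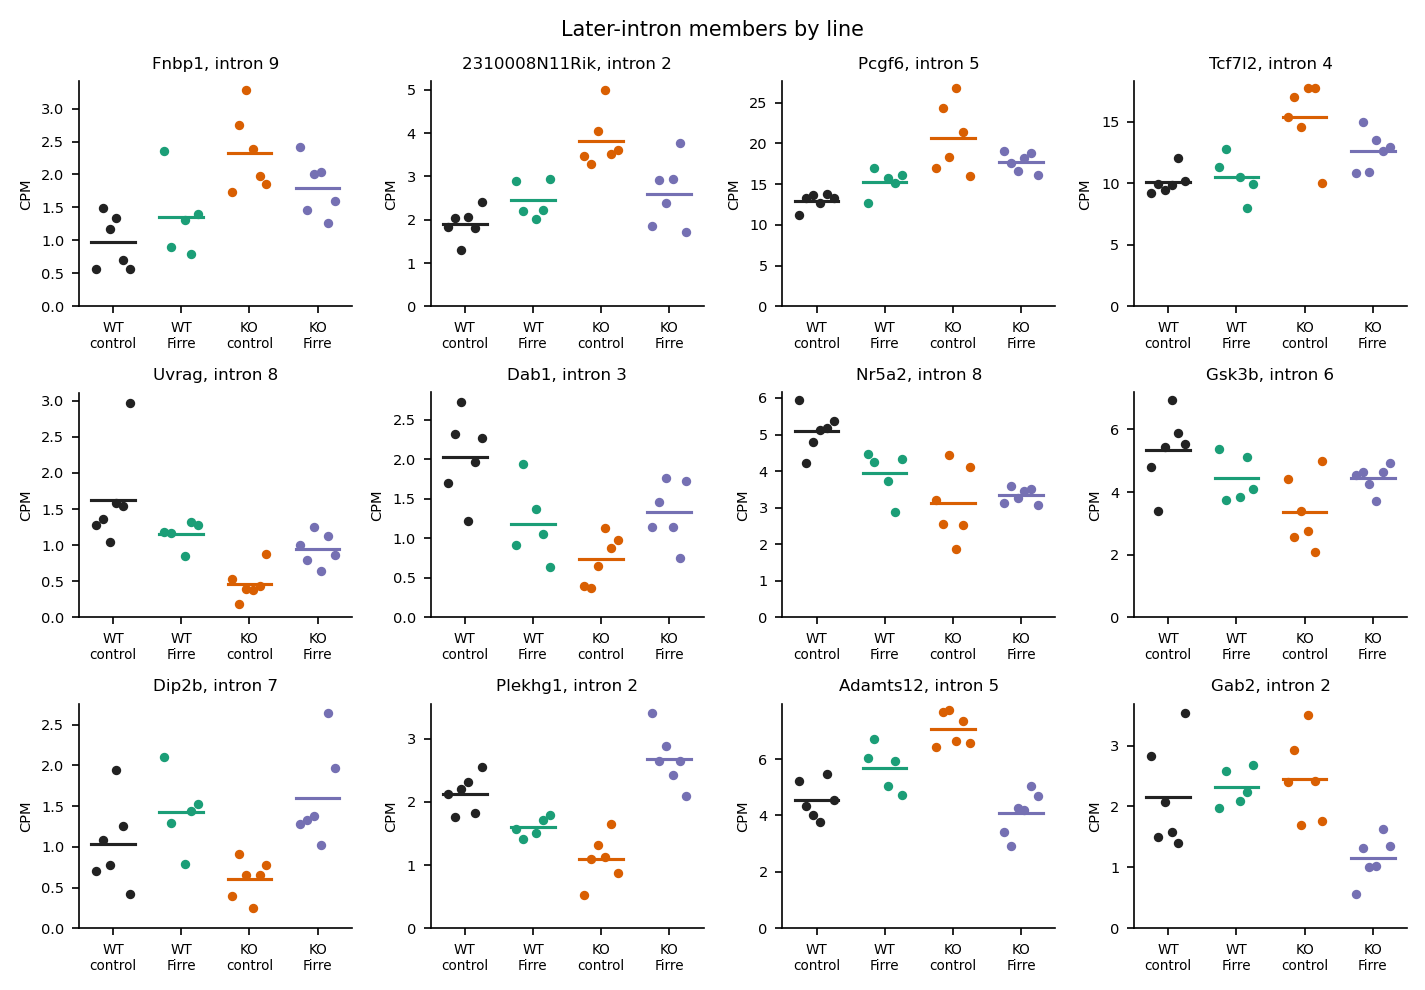
CPM of 12 later-intron members in every library, grouped by line. Points are libraries in time order from left to right within a line, horizontal bars are means, and each panel starts at 0; Fnbp1, 2310008N11Rik, Pcgf6, Dab1 and the Uvrag interval have no overlap between the WT and KO controls, and Dip2b, Plekhg1, Adamts12 and Gab2 none between the KO control and the KO Firre line.

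The 8 most accessible later-intron intervals were mostly higher in the KO control. They were ranked on the mean over the 4 lines, the KO control included. Of the highest level group 8.22% were called higher, and of all tested intervals 5.5%. The 8 with the highest mean level lay in Clec11a (a secreted growth factor; 76.7 CPM per kb), Ltbp4 (a binding protein of latent TGF-beta; 44.5), Usp20 (a deubiquitinase; 42.7), Arid1b (a subunit of the BAF chromatin remodeller; 42.1), Ppfia3 (a liprin; 41.0), Pkm (pyruvate kinase; 40.3), Itpkb (an inositol phosphate kinase; 37.1) and Sptbn4 (a beta spectrin; 36.0), and 7 of them passed the test, with log2 differences from 0.353 to 0.561. Ltbp4 had 36.0, 41.8 and 48.0 CPM in the WT control and 51.6, 59.3 and 81.9 in the KO control, without overlap (log2 0.561 ± 0.087; adjusted p = 2.41e-06, edgeR). It had 38.4, 46.1 and 52.2 CPM in the KO Firre line, whose 90 min library alone exceeded the lowest KO control library (log2 -0.447 ± 0.086; adjusted p = 0.00113, edgeR). The second call was lost without the KO control libraries of 30 and 90 min. Clec11a had 76.8, 86.1 and 90.1 CPM in the WT control and 101, 114 and 154 in the KO control (log2 0.516 ± 0.092; adjusted p = 4.42e-05, edgeR), and 88.3, 115 and 138 in the KO Firre line (log2 -0.061; adjusted p = 0.850, edgeR). For Sptbn4 the log2 difference between the controls was 0.245 ± 0.086 (adjusted p = 0.0608, edgeR). The calls of Arid1b, Ppfia3, Pkm and Itpkb were lost without the KO control libraries of 30 and 90 min, that of Pkm also in 5 leave-one-out fits. Between the controls, the calls of Clec11a, Arid1b, Ppfia3 and Pkm were lost with loess offsets. Those of Clec11a, Ltbp4, Usp20, Pkm and Itpkb were lost with the promoter share as a covariate. Given that covariate, Arid1b and Ppfia3 had log2 differences of -0.031 and -0.073.

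The KO Firre line differed from the KO control in 300 later-intron intervals (0.931%, against 0.913% of all tested intervals), 199 higher (0.617%, against 0.569%) and 101 lower (0.313%, against 0.344%). The share was near the background. The median log2 difference was 0.003, beside -0.002 over all tested intervals. First introns and intergenic intervals had 1.05% called each and promoters 0.527%. The count was 137 without the KO control libraries of 30 and 90 min, 39 with DESeq2 and 467 with loess offsets. Leaving out 1 library gave 148 to 198 calls without the KO Firre line at 30, 90, 120 or 150 min, and 186, 172 and 167 without the KO control of 0, 30 or 120 min.

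Plekhg1, a guanine nucleotide exchange factor of small GTPases, had 0.534, 1.11 and 1.65 CPM in the KO control and 2.09, 2.65 and 3.41 in the KO Firre line (intron 2 of 15, chr10:3881249-3881489). The lines did not overlap (log2 1.26 ± 0.239; adjusted p = 0.000938, edgeR). The WT control had 1.77, 2.16 and 2.55 CPM, all above the KO control (log2 -0.942 ± 0.255; adjusted p = 0.00974, edgeR), and the second call was lost without the KO control of 0 min or without those of 30 and 90 min together. Arhgef7, another exchange factor, had 0.655, 0.785 and 1.65 CPM in the KO control and 1.60, 2.06 and 3.27 in the KO Firre line (log2 1.25 ± 0.270; adjusted p = 0.00612, edgeR). The lines overlapped slightly, and this call was lost without the KO Firre library of 120 min. Dip2b, a gene of the disco-interacting family, had 0.250, 0.657 and 0.915 CPM in the KO control and 1.02, 1.35 and 2.64 in the KO Firre line (intron 7 of 37, chr15:100156698-100157022), without overlap (log2 1.41 ± 0.338; adjusted p = 0.0176, edgeR). Its call was lost without the KO Firre library of 120 or 150 min or the KO control of 0 or 120 min, and without those of 30 and 90 min together.

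Ints3, a subunit of the Integrator and SOSS complexes of RNA processing and DNA repair, had 1.05, 1.24 and 1.96 CPM in the KO control and 1.91, 2.98 and 3.77 in the KO Firre line (log2 1.09 ± 0.223; adjusted p = 0.00287, edgeR), and the lines overlapped slightly. Atp10a, a phospholipid flippase gene, had a log2 difference of 1.07 ± 0.242 (adjusted p = 0.00988, edgeR), lost without the KO Firre library of 120 or 150 min or the KO control of 0 min. Etl4 had 1.12 ± 0.309 (adjusted p = 0.0481, edgeR), lost in 13 fits that left out 1 library and without the KO control libraries of 30 and 90 min.

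Lower in the KO Firre line were members in Cmip, Lrriq3, Slc66a2, Gab2, Grm8 and Adgrv1, with log2 differences from -1.01 to -1.40. Slc66a2, a gene of the PQ-loop transporter family, had 3.03, 3.74 and 6.14 CPM in the KO control and 1.38, 1.81 and 2.78 in the KO Firre line, without overlap (log2 -1.09 ± 0.192; adjusted p = 0.000266, edgeR). This call held in every alternative that was run. Gab2, a docking adaptor of receptor tyrosine kinases, had 1.70, 2.41 and 3.51 CPM in the KO control and 0.569, 1.17 and 1.64 in the KO Firre line (intron 2 of 9, chr7:97247815-97248388), with no overlap (log2 -1.03 ± 0.253; adjusted p = 0.0208, edgeR). Grm8, a metabotropic glutamate receptor gene, had 1.66, 2.2 and 2.63 CPM against 0.569, 1.03 and 1.51, with no overlap (log2 -1.02 ± 0.262; adjusted p = 0.0302, edgeR). The calls of Cmip and Gab2 were lost in 6 leave-one-out fits each, that of Grm8 in 7, that of Lrriq3 in 4 and that of Adgrv1 in 2 (without the KO Firre library of 0 min or the KO control of 60 min). Those of Gab2, Grm8 and Lrriq3 were also lost without the KO control libraries of 30 and 90 min, and those of Gab2 and Grm8 with limma-voom.

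The WT Firre line differed from the WT control in 20 later-intron intervals (0.062%, against 0.0818% of all tested intervals), 9 higher (0.0279%, against 0.061%) and 11 lower (0.0341%, against 0.0208%). The median log2 difference was -0.025, beside -0.004 over all. Of the 11 lower, 9 were on chromosome 13, and 8 of these lay within 108 kb (chr13:66311475-66419530), a stretch described because its values stood out. There, 12 later-intron intervals were tested, with a median log2 difference of -0.904 and a range of -1.34 to 0.33. No later-intron interval was tested in the 1 Mb before this stretch, and the 4 tested in the 1 Mb after it had a median of -0.152, with 0 called (edgeR). The ninth lower interval on the chromosome, in Zfp874a (chr13:67433652-67434965), lay just past that flank. It had 5.66, 5.44, 6.10, 6.57, 5.18 and 5.67 CPM in the WT control and 3.81, 2.97, 3.66, 3.81 and 3.83 in the WT Firre line, without overlap (log2 -0.672 ± 0.152; adjusted p = 0.0291, edgeR). It was named after its values were seen.

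The interval nearest Gm18260 (chr13:66311475-66312505, in a lincRNA listed only by identifier) had 13, 14 and 16 CPM in the WT control and 6.69, 6.71, 8.89, 5.52 and 7.79 CPM in the WT Firre line at 0, 30, 90, 120 and 150 min. All 5 were lower, from the 0 min library on (log2 -0.999 ± 0.122; adjusted p = 3.82e-09, edgeR). The interval that holds the Gm26715 window printed above (chr13:66348726-66349855) had 8.84, 9.91 and 13.4 CPM in the WT control and 4.46, 4.90, 6.28, 4.86 and 5.87 in the WT Firre line (log2 -1.001 ± 0.128; adjusted p = 1.90e-08, edgeR). In intron 4 of Vmn2r-ps104, by its name a vomeronasal receptor pseudogene, 2 intervals had log2 differences of -1.15 ± 0.224 and -1.11 ± 0.192 (adjusted p = 0.00270 and 0.000241, edgeR). In intron 3 of 2410141K09Rik the values were 10.1, 12.2 and 14.0 CPM in the WT control and 7.09, 6.58, 6.34, 5.26 and 7.02 in the WT Firre line (log2 -0.942 ± 0.124; adjusted p = 6.55e-08, edgeR). None of these 5 intervals passed the test between the KO Firre line and the KO control, where their log2 differences were 0.071, 0.069, 0.237, -0.087 and -0.143, or between the controls, where they ran from -0.085 to 0.273.

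**Figure D5:**
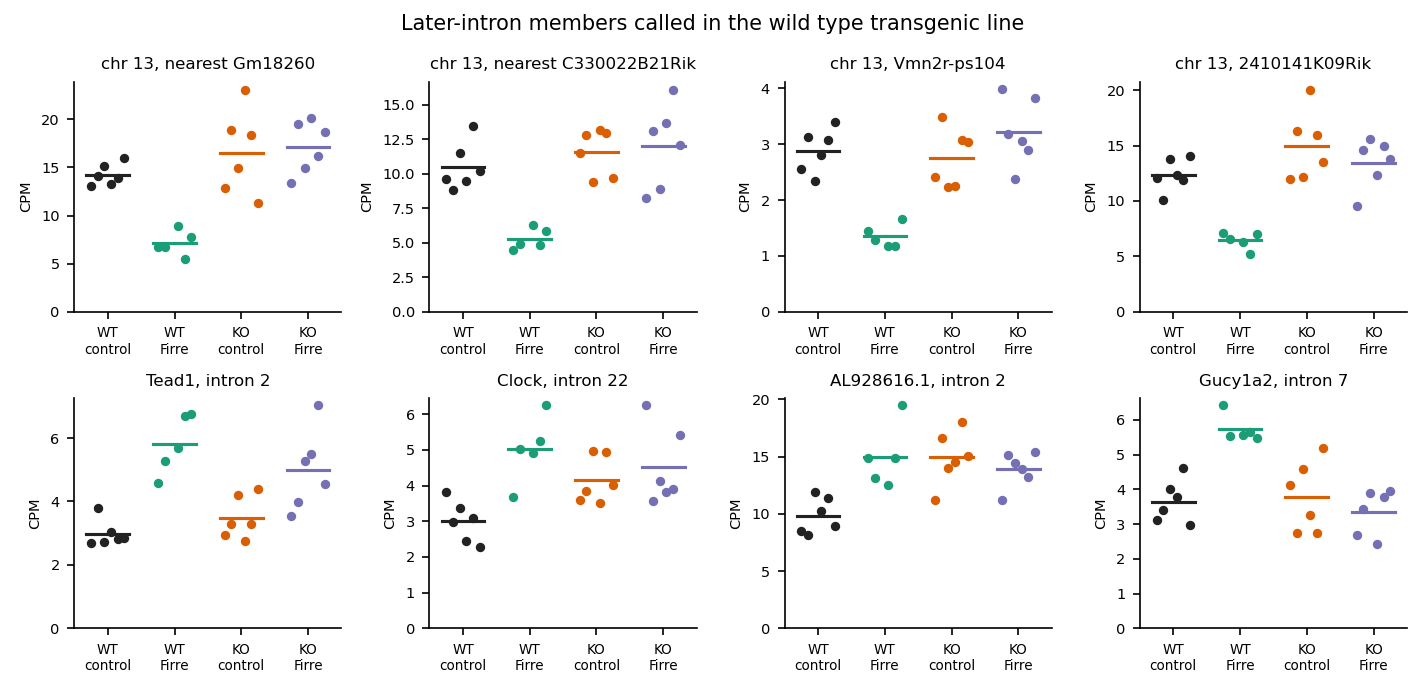
CPM of 8 later-intron members called between the WT Firre line and the WT control, in every library by line. Points are libraries in time order within a line and horizontal bars are means; the 4 intervals on chromosome 13 (top) are lower in all 5 libraries of the WT Firre line than in every library of the other lines, and those of the lower row are higher in it than in the WT control, with overlap for Clock.

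Higher in the WT Firre line was the interval in intron 2 of Tead1, a transcription factor of the Hippo pathway (chr7:112723498-112724666). It had 2.69, 2.82 and 3.81 CPM in the WT control and 4.59, 5.29, 5.69, 6.71 and 6.77 in the WT Firre line at 0, 30, 90, 120 and 150 min. All 5 lay above the WT control (log2 0.972 ± 0.162; adjusted p = 8.42e-05, edgeR), and the call held in every alternative run. In the knockout background Tead1 had 2.75, 3.29 and 4.40 CPM in the control and 3.55, 4.91 and 7.05 in the Firre line, which overlapped (log2 0.515 ± 0.154; adjusted p = 0.0783, edgeR).

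AL928616.1, a processed pseudogene, had 8.16, 9.58 and 11.9 CPM in the WT control and 14.8, 13.2, 12.5, 14.9 and 19.5 in the WT Firre line, all above the control (log2 0.593 ± 0.109; adjusted p = 0.000744, edgeR). The KO control was higher than the WT control there as well (log2 0.585 ± 0.105; adjusted p = 3.97e-05, edgeR). The core circadian gene Clock had a log2 difference of 0.783 ± 0.170 (adjusted p = 0.0155, edgeR), and Gucy1a2, a guanylate cyclase subunit gene, 0.696 ± 0.157 (adjusted p = 0.0284, edgeR). These calls of Clock and Gucy1a2 were lost in 6 and 8 leave-one-out fits, and both also with DESeq2 and with total counts. That of Gucy1a2 was lost with limma-voom, without a time term and without the 0 min libraries as well. The interval nearest Ezr had 0.610 ± 0.119 (adjusted p = 0.00282, edgeR), lost without the WT Firre library of 30 min or the WT control of 30 or 120 min. DESeq2 ended it too. With the promoter share as a covariate the calls of Clock, the interval nearest Ezr and AL928616.1 were lost.

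The difference between the transgene's contrasts in the 2 backgrounds was tested directly, and 72 later-intron intervals (0.223%, against 0.266% of all) were called, 45 with a more positive contrast in the knockout background (0.14%, against 0.128%) and 27 with a more negative one (0.0838%, against 0.138%). Adamts12, a secreted metalloprotease gene, had 6.41, 6.99 and 7.73 CPM in the KO control and 2.92, 4.24 and 5.03 in the KO Firre line, without overlap (log2 -0.770 ± 0.136; adjusted p = 0.000266, edgeR). In the wild type lines the difference was 0.321 ± 0.146 (adjusted p = 0.607, edgeR), and the contrasts differed by -1.09 ± 0.200 (adjusted p = 0.00112, edgeR). Sh3pxd2a, the podosome scaffold Tks5, had contrasts of -0.329 and 0.369 that differed by -0.698 ± 0.135 (adjusted p = 0.00353, edgeR). For Plekhg1 the contrasts of 1.26 and -0.398 differed by 1.66 ± 0.342 (adjusted p = 0.00786, edgeR). The count of calls was 198 without the KO control of 150 min and 30 without the KO Firre library of 120 min, and 2 with DESeq2.

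Genes that hold the stem cell state or its signals were read by the host gene of the intron, from lists chosen with earlier results of these data known. The counts of each list between the controls stand beside 5.5% higher and 2.47% lower of all tested intervals, and 2.59% and 2.86% of the later introns, and no list is said to stand apart from these shares. In naive pluripotency genes 2 of 57 tested members were higher and 2 lower in the KO control (median -0.031), in formative and primed genes 1 of 42 was higher and 0 lower (median 0.036) and in germ layer and trophoblast genes 1 of 43 was higher and 1 lower (median -0.05). Nr5a2 encodes a nuclear receptor that keeps Pou5f1 active. Its interval in intron 8 (chr1:136878661-136879881) had 4.21, 5.15 and 5.95 CPM in the WT control and 1.88, 2.88 and 4.45 in the KO control, which overlapped (log2 -0.691 ± 0.159; adjusted p = 0.00184, edgeR). Lifr, the LIF receptor gene, had a log2 difference of -0.425 ± 0.133 (adjusted p = 0.0298, edgeR) and Tfcp2l1, a target factor of LIF signalling, 0.274 ± 0.090 (adjusted p = 0.0398, edgeR), the latter -0.025 with the promoter share as a covariate. Gata3, a trophoblast and lymphoid factor, had -0.931 ± 0.281 (adjusted p = 0.0231, edgeR). All 4 calls were lost without the KO control libraries of 30 and 90 min, and leaving out 1 library ended that of Lifr and of Gata3 in 6 fits each and that of Tfcp2l1 in 9.

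The culture inhibitors act on GSK3 and MEK, so the Wnt and FGF lists were of interest. Of 112 tested members of Wnt pathway genes 4 were higher and 3 lower in the KO control (median -0.06). Tcf7l2, a transcription factor at the end of the pathway, had 9.20, 9.89 and 12.1 CPM in the WT control and 9.98, 16.2 and 17.8 in the KO control, with the 150 min library inside the wild type range (log2 0.598 ± 0.103; adjusted p = 2.05e-05, edgeR). Gsk3b, the kinase that CHIR99021 inhibits, had an interval in intron 6 with 3.40, 5.49 and 6.94 CPM against 2.08, 3.08 and 4.99 (log2 -0.663 ± 0.159; adjusted p = 0.00302, edgeR). Another Gsk3b interval, in intron 2, had 16.4, 19.6 and 25.7 CPM in the KO control and 21.3, 25.7 and 27.3 in the KO Firre line, which overlapped (log2 0.341 ± 0.088; adjusted p = 0.0297, edgeR). Leaving out the WT control of 90 min ended the intron 6 call, and 8 leave-one-out fits ended that of intron 2. In the FGF and ERK list 1 of 115 was higher and 3 lower (median -0.08), among them 2 intervals of intron 2 of Fgfr2 (log2 -0.569 ± 0.171 and -0.672 ± 0.219) against one in Nf1, a Ras inhibitor, at 0.306 ± 0.089 on chromosome 11. In the LIF and STAT3 list 1 of 38 was higher and 2 lower (median 0.011), with Ptpn11, a phosphatase that carries receptor signals to Ras, at -0.721 ± 0.190 (adjusted p = 0.00783, edgeR). That call was lost without the KO control of 120 min or the WT control of 90 min, those of Fgfr2 in 6 and 7 leave-one-out fits and that of Nf1 in 4. The calls of Ptpn11, Nf1, both Fgfr2 intervals and the intron 6 interval of Gsk3b were lost without the KO control libraries of 30 and 90 min, and that of Tcf7l2 held. With the promoter share as a covariate the call of Tcf7l2 was lost.

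The lists of chromatin regulators had medians below the -0.07 of all tested later introns, a description that was not tested. For DNA methylation genes 1 of 47 members was higher and 2 lower in the KO control (median -0.178), for Polycomb genes 2 of 84 were higher and 1 lower (median -0.145) and for CTCF and cohesin genes 0 of 24 were higher and 1 lower (median -0.122). Pcgf6, a subunit of a variant Polycomb repressive complex, had 11.2, 13.3 and 13.7 CPM in the WT control and 15.9, 19.9 and 26.8 in the KO control (intron 5 of 6, chr19:47047278-47047857), with no overlap (log2 0.655 ± 0.095; adjusted p = 3.74e-07, edgeR). Jarid2, an accessory subunit of the other main Polycomb complex, had 1.77, 2.82 and 5.04 CPM against 1.10, 1.28 and 3.14, which overlapped (log2 -0.933 ± 0.228; adjusted p = 0.00355, edgeR), and its call was lost without the WT control of 120 min. Dnmt3a, a de novo DNA methyltransferase, had 10.7, 11.4 and 11.8 CPM against 12, 14.9 and 16.5 with no overlap (log2 0.345 ± 0.097; adjusted p = 0.0139, edgeR), lost without the KO control of 120 min or the WT control of 90 min. The demethylating enzyme gene Tet3 had -0.468 ± 0.143, the methyl-CpG reader gene Mbd2 -1.20 ± 0.305 and the cohesin subunit gene Stag1 -0.854 ± 0.273. The calls of Tet3 and Stag1 were lost in 5 and 9 leave-one-out fits. Without the KO control libraries of 30 and 90 min those of Jarid2, Dnmt3a, Tet3, Mbd2 and Stag1 were lost, and that of Pcgf6 held. With the promoter share as a covariate the call of Pcgf6 was lost.

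The longest list, neural adhesion and receptor genes known for very long introns, had 26 of 594 tested members higher and 7 lower in the KO control with a median of -0.001, and 0 higher and 6 lower in the KO Firre line against the KO control (median -0.045), where 0.569% of all tested intervals were higher and 0.344% lower. Ptprd, a receptor tyrosine phosphatase gene, had 11.6, 12.2 and 13.7 CPM in the WT control and 14.3, 18.5 and 20.2 in the KO control, without overlap (intron 20 of 30; log2 0.549 ± 0.093; adjusted p = 1.39e-05, edgeR). The KO Firre line had 12.2, 14.0 and 15.1 CPM (log2 -0.401 ± 0.090; adjusted p = 0.00919, edgeR). Leaving out the 120 min library of the KO control or of the KO Firre line ended the second call of Ptprd, as did DESeq2. Of 50 tested intervals in Cdh13 1 was higher, at 0.621 ± 0.109, and 3 were lower, with a median of -0.111. Of 5 genes reported to contact Firre only 1 held later-intron members, and 0 of its 12 tested members were called (edgeR). The other genes of that list could not be read here. Of 18 fibroblast marker genes 5 held members, and 0 of 21 tested were called (edgeR). In the WT Firre line 0 members of the 12 lists were called (edgeR). Other calls of the KO Firre line in the lists were 1 Wnt member (Gsk3b) and 1 Polycomb member, Aebp2 at 0.579 ± 0.161 (adjusted p = 0.0499, edgeR), which was lost in 20 leave-one-out fits.

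Intervals of 1 host gene lie side by side and are not independent. Apart from Camta1, the genes named here were picked for having the most called members. Of 3798 host genes with 3 or more tested members, 1019 had at least 1 call between the controls and 203 had 2 or more. Of these 203, 65 had only higher calls, 70 only lower and 68 both. In Slc39a11 9 of 53 tested members were higher and 0 lower in the KO control (median 0.199), in Msi2, an RNA-binding protein gene, 8 of 43 and 0 (median 0.137), and in Ntn1, the gene of the guidance cue netrin-1, 5 of 28 and 0 (median 0.101). These 3 genes lie on chromosome 11, where 9.31% of tested later-intron intervals were higher and 0.232% lower. Of all tested intervals 5.5% were higher and 2.47% lower. Sh3pxd2a on chromosome 19 had 6 of 26 higher and 0 lower (median 0.108). Chst11, a chondroitin sulfotransferase gene, had 0 higher and 5 lower of 10 (median -0.512). Snd1 had calls in both directions, 3 higher and 2 lower of 27 (median 0.091). Camta1, with 70 tested members, had 0 called (median -0.048). Between the KO Firre line and its control, Runx1 had 2 of 11 higher (median 0.268) and Aspscr1 2 of 3 lower (median -0.351). Of all tested intervals 0.569% were higher and 0.344% lower in that comparison.

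Counts were also summed over the later-intron intervals of 1 gene, for 4893 genes with 3 or more by the nearest TSS, and tested by edgeR with adjustment over these sums. Between the controls 629 sums were called (12.9%), 246 higher and 383 lower. The split was 91 and 1298 scaled by total counts and 403 and 172 with factors from the later introns alone. In the KO Firre line 97 were called (1.98%), 63 higher and 34 lower, or 41 and 37 of 78 with factors from the later introns. In the WT Firre line 5 were called (0.102%), 2 higher and 3 lower. By the host gene of the intron, 600 of 4165 sums (14.4%), 106 (2.55%) and 4 (0.096%) were called. Atp6v1h, a subunit of the vacuolar proton pump, summed over 7 intervals to 50.1 ± 4.41 CPM (SD, n = 6) in the WT control and 71.1 ± 9.86 in the KO control (log2 0.499 ± 0.077). Hnrnpr, an RNA-binding protein gene, summed over 3 to 4.14 ± 1.23 and 2.40 ± 0.588 CPM (log2 -0.765 ± 0.203), a call lost without the WT control of 90 min. Fignl1, a recombination ATPase gene on chromosome 11, summed over 6 to 40.0 ± 2.08 CPM in the KO control and 29.4 ± 1.16 in the KO Firre line (log2 -0.442 ± 0.059). Gm18260 and Gm48243, both by the stretch on chromosome 13, summed to 22.2 ± 2.14 and 33.1 ± 2.15 CPM in the WT control and 11.6 ± 2.08 and 18.02 ± 1.70 in the WT Firre line (n = 5).

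No later-intron interval passed a test on time. For the mean response to induction over 30 to 150 min beyond that of the control lines, 0 were called by edgeR (0% of all tested intervals), and 1333 (4.14%) had an unadjusted p under 0.05. The median was -0.008. For any change over the course, 0 were called (0.000772% of all), with 1531 (4.75%) at an unadjusted p under 0.05, and for the response of the control lines to doxycycline and handling 0 (0% of all), with 1741 (5.4%) at an unadjusted p under 0.05 and a median of -0.028. DESeq2 and limma-voom also called 0 for each of the 3 tests. Each time has 1 library per line, so the 2 backgrounds serve as the replicates of a time, and the median SE of the mean response was 0.347 on the log2 scale. Fbxl13, Tomm70a, Gm4869 and Ahdc1 had the smallest p for the mean response. Med27, a Mediator subunit gene among those with the smallest p over the course, had 3.94 CPM in the WT Firre line at 0 min and 8.30 at 150 min, and 3.51 to 6.77 in the KO Firre line.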

How the data were processed

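ATAC-seq was measured in 24 libraries per the labels, of which 23 had counts. The values the authors deposited are raw counts of reads, in whole numbers, for each of 145143 intervals shared by all libraries, with no scaling. Their annotation of these intervals gives position, intron, nearest gene and signed distance to its TSS. MACS2 2.2.7.1, featureCounts and the build mm10 are named per the submitters' processing notes. The aligner, the duplicate handling and the transposase shift were not stated in the sources used here.

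Counts of all intervals were fitted with edgeR 4.0.16 (R 4.3.3; glmQLFit, robust, current mode, and glmQLFTest), with TMM scaling, filterByExpr (minimum 10 counts, lines as groups), line and time as terms (14 residual degrees of freedom, or 9 with transgene by time) and Benjamini-Hochberg adjustment over the 129515 tested intervals. Printed CPM use the TMM library sizes. Shares were compared with exact 2-sided permutation tests (scipy 1.17.1), adjusted over 9 tests. The fits were tested on simulated data. Alternatives included DESeq2 1.42.0, limma 3.58.1 (voom), other scalings and filters, a promoter share covariate and left-out libraries. The closest pair of libraries, the KO controls of 90 and 120 min, still differed by more than counting noise (chi-square per degree of freedom 1.218).

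The members and lists were chosen with earlier results of these data known. Named members were, per line contrast, the called intervals with the largest change and at least 1 CPM in the higher line (10 per direction for the controls, 6 for the transgene contrasts, at most 2 per nearest gene), those with the smallest p for the other tests, the 8 with the highest CPM per kb, and up to 3 called members per list. Start coordinates are as the file gives them. Host symbols were taken from the file's own pairing of identifiers and names. A member that the naming rule picked is not reported here.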

Additional observations from a re-analysis of the deposited data

Results flagged for a closer look

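A gap test for a single far library (the gap of the highest or lowest library to its nearest neighbour over the whole range, against Dixon's limit at the 95% level) was passed in 21 of 240 groups tested (8.8%), and chance alone gives about 1 in 20. The share of counts in later introns had a ratio of 0.662 in the KO Firre line, where the 0 min library was highest, and 0.714 in the WT Firre line, where the 150 min library was lowest. The log2 ratio to intergenic intervals had 0.701 in the KO Firre line.

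Among members of the KO control the ratio was 0.703 for Gm4869, 0.764 for 9530026P05Rik, 0.674 for Arhgef7, 0.747 for Slco2a1 and 0.629 for Ahdc1. In the KO Firre line it was 0.642 for 9530026P05Rik, 0.631 for Vmn2r-ps104 and 0.641 for Ttc7. In the WT control it was 0.718 for Uvrag, 0.683 for Tead1, 0.761 for Gm31816, 0.643 for Ston2, 0.779 for Pkp4 and 0.704 for Ints3. In the WT Firre line it was 0.829 for Gucy1a2, 0.728 for Sh3pxd2a, 0.788 for Med27 and 0.72 for Pkp4.

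The transgene's contrast differed between the backgrounds, by edgeR's test of the difference (knockout minus wild type, log2), by 1.661 for Plekhg1, 1.255 for Ints3, 1.385 and 1.022 for the 2 Vmn2r-ps104 intervals, 0.799 for 2410141K09Rik, -0.722 for the interval nearest Ezr, -0.689 for AL928616.1, -1.091 for Adamts12 and -0.698 for Sh3pxd2a. It was 1.07 for each of the chromosome 13 intervals nearest Gm18260 and C330022B21Rik, and 0.974 for the one nearest Gm48243 in the unnamed lincRNA. These calls were not equally stable: that of Ints3 was lost in 7 other settings and 19 leave-one-out fits, that of the Vmn2r-ps104 interval at 1.022 in 4 and 15, that of the interval nearest Ezr in 2 and 9 and that of AL928616.1 in 2 and 3. Those of Plekhg1 and the other Vmn2r-ps104 interval were lost in 1 other setting, without the 0 min libraries.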

How the results depend on the processing

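Of 566 alternative values computed for 22 results, 479 stayed within the limits set for the same result. For counts of calls and gene sums the limit was a fixed fold of the main count, whatever the split by direction. For medians it was the SD between the library medians of the lines. Shares and ratios had to keep their sign and their side of the threshold. A time test that again called 0 met its limit, as did a ratio that again did not pass. The 479 is therefore no measure of how stable the calls were. The labels number no replicates, so libraries could be matched only by time. The edgeR fits between lines held time as a term. Paired by time, the share difference between the controls was -1.128 points (exact sign-flip test, adjusted p 0.2812, from the smallest p that the pairs allow). The counts of calls between the controls were 663 with DESeq2, 7 with a promoter share covariate and 358 without the KO control at 30 and 90 min (below, the 2 libraries). Their median was -0.1582 with total counts, -0.01414 with loess offsets, -0.01139 with factors from the later introns alone and 0.01424 with the covariate. For the KO Firre line the calls were 39 with DESeq2, 467 with loess offsets, 137 without the 2 libraries and 170 without the 0 min libraries. For the WT Firre line they were 9 with DESeq2 and 11 with the covariate, with medians of -0.0679 (total counts), -0.003324 (later-intron factors) and 0.01229 (covariate). Scaled by total counts its calls were 6 higher and 13 lower. For the difference of contrasts they were 2 with DESeq2, 42 with limma-voom, 134 with loess offsets, 41 with later-intron factors (21 positive, 20 negative), 117 with a minimum of 30 counts, 29 with the covariate, 32 without the 2 libraries and 19 without 0 min, and 82 positive against 22 negative with total counts. The time course had 1 call with loess offsets and 1 without the 2 libraries. Gene sums between the controls numbered 1389 with total counts, 5 with the covariate and 191 without the 2 libraries, those of the KO Firre line 55 without the 2 libraries, and those of the WT Firre line 8 with later-intron factors.

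Without the 2 libraries the share difference was -0.8912 between the controls and -0.09168 for the KO Firre line, and the log2 ratio to intergenic intervals was -0.01365 for the latter. With 1 library left out, calls ran from 828 to 3143 between the controls, 148 to 360 and 14 to 26 for the Firre lines, 30 to 198 for the difference, and 0 to 1 for the mean response and the time course. Gene sums ran from 382 to 1160, 45 to 162 and 3 to 13. The ratio to first introns ran from -0.04222 to -0.02553 between the controls and from -0.01418 to 0.002509 for the KO Firre line, where it turned positive without the KO control of 150 min. The ratio to intergenic intervals ran from -0.03943 to -0.02199 and from -0.004767 to 0.01268, and the share for the WT Firre line from -0.7934 to -0.3384. With the covariate, the direction turned for Arid1b (-0.03081), Ppfia3 (-0.07339), Tfcp2l1 (-0.02539) and 1 Fgfr2 interval (0.04353). Of 119 named calls 21 held in every alternative and 60 were lost in at least 1 leave-one-out fit, 69 with the covariate and 54 without the 2 libraries. The causes were not tested. Members near 1 CPM rest on few counts, so their differences are imprecise at this depth.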
